A study of Daphnia magna with 15 samples.

Results

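In the water flea Daphnia magna, 182 gene models (predicted mRNAs) carried methylated calls in most of the libraries that read them and reached a pooled methylation level of 10% or more. They came from 25092 gene models listed in at least 1 of 15 bisulfite libraries. A gene model was taken as covered in a library with 10 or more cytosine calls, where a call is 1 cytosine read as methylated or unmethylated. It was kept when it was covered in 6 or more libraries with a median under 500 calls, was methylated in at least 50% of these libraries and in at least 1 covered control, and had 10% or more methylated calls when its covered libraries were summed. Coverage and the limit on calls left 16835 eligible gene models. Of these, 786 were methylated in at least 50% of their covered libraries, 608 of the 786 were also methylated in a covered control, and 182 of the 608 (1.08% of the eligible) reached 10%. The other 426 recurrent gene models stayed below 10%. The levels of all 15 libraries thus chose the 182, so their height and recurrence are given as a description. The demand for a methylated control treats the groups unequally.

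The libraries were made from genomic DNA of adult females, 12 labelled salinity and 3 labelled control. Founder cultures were kept at 4.1 g/L NaCl for salinity and at 0 g/L for control, 3 cultures each, at 20 °C under a cycle of 16 h light and 8 h dark. Later generations, up to generation 4, were raised in control medium. The labels tie no library to a culture or a generation, so a salinity library may hold exposed animals or their descendants in control medium, and the p-values measure only the spread between libraries, whose source (technical, culture or generation) cannot be told apart. The clone of D. magna is not given in the sources used here.

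DNA methylation in animals is the addition of a methyl group to cytosine, mostly where a guanine follows. The methyltransferase DNMT3 sets new marks and DNMT1 copies them at replication. In Daphnia, as in many other arthropods, methylation is sparse and sits mainly in the bodies of a limited set of genes. Bisulfite turns unmethylated cytosine into a base read as thymine, and MspI cuts at CCGG whether or not the inner cytosine is methylated, so the reads come from fragments next to such sites. The identifiers of the gene models are not paired with gene names in the files, and 0 of them matched the 28335 genes of the reference table. The gene models are therefore described by identifier and counts, without a gene's role.

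Salinity libraries listed 8053 to 18896 gene models with 1250901 to 2905380 calls, and control libraries 13647 to 15803 gene models with 2115766 to 2467138 calls. The deposited values hold hardly any methylated counts of 1 or 2, so a level of 0 stands for few methylated calls or none, and a 0 was given no upper limit. The lowest recurring methylated count (the lowest that made up at least 5% of a library's methylated gene models) was 3 in 9 salinity and 2 control libraries. It was 4 in salinity 9, 11 and 12 and in control 3. These 4 libraries also had the smallest shares of methylated gene models among the eligible, 1.69% to 4.92% in the salinity libraries and 3.71% in control 3. The shares in the other libraries were 6.82% to 10.8% in salinity and 9.44% to 9.73% in control.

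Few of the 182 gene models were methylated in the bulk of their calls. The pooled level ran from 10.04% to 58.0% with a median of 15.6%. It was under 15% in 81 gene models, from 15% to under 20% in 48, from 20% to under 30% in 39, from 30% to under 50% in 12, and above that in 2. Just inside the limit were Dapma7bEVm010157t1 at 10.16%, Dapma7bEVm027903t1 at 10.13% and Dapma7bEVm010960t1 at 10.04%. Just outside were Dapma7bEVm636360t1 at 9.85%, Dapma7bEVm005869t1 at 9.78% and Dapma7bEVm005351t1 at 9.69%.

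The gene models at 10% or more had few calls. Their median number of calls per covered library ran from 12 to 107 with a median of 28, against a median of 94.8 for the recurrent gene models below 10% and of 68 for all eligible ones. Counts of methylated calls differed less. A methylated listing (a gene model with methylated calls in a covered library) held a median of 6 methylated calls among the 182, of 5 below 10% and of 4 over all eligible gene models. Of 1031 methylated listings of the 182, 345 (33.5%) rested on 3 or 4 methylated calls and 284 (27.5%) on 10 or more, against 49.3% and 14.9% in the recurrent gene models below 10%. The level is the methylated count divided by the calls, so with hardly any counts under 3 the lowest level that can be seen is higher where there are fewer calls. The Wilson 95% interval of a single methylated listing had a median width of 26.6 percentage points, from 7.80 to 52.7. They allow for counting error alone, and calls on 1 read are not independent.

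**Figure D1:**
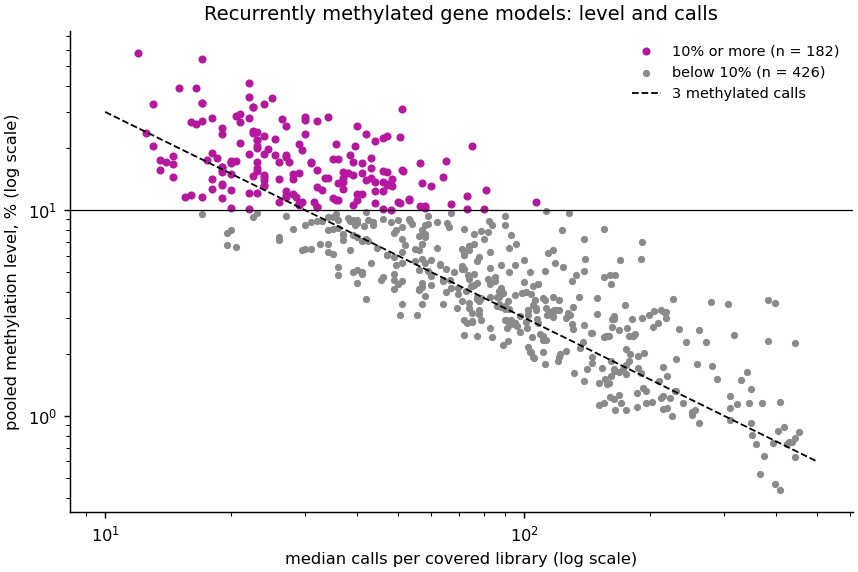
Pooled methylation level (%, log scale) of each recurrent gene model against its median number of calls per covered library (log scale), for the 182 gene models at 10% or more and the 426 below. The dashed line is the level that 3 methylated calls give at each number of calls. The gene models above the horizontal line at 10% have medians of 12 to 107 calls.

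The 5 gene models with the highest pooled level show how these levels are built. Dapma7bEVm000248t1 was at 35.3%, 72.7%, 73.1%, 40% and 36.4% in salinity 3, 4, 5, 7 and 8, against 76.9% in control 1, its only covered control. It was methylated wherever it was covered, on 10 to 26 calls a library, and its Wilson 95% intervals ran from 16.8% to 68.7% in salinity 7 and from 49.7% to 91.8% in control 1. Dapma7bEVm642322t1 was at 38.5%, 74.3%, 68% and 45% in salinity 1, 4, 5 and 11, against 23.5%, 81.8% and 25% in control 1, 2 and 3. The groups overlapped, and single libraries of both reached 70% or more.

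Dapma7bEVm645163t1, with the same methylated counts as Dapma7bEVm642322t1 in all but 1 library, ran from 15% to 72.2% with a median of 36.2% in 6 salinity libraries, against 16%, 60% and 18.2% in the 3 controls. Dapma7bEVm008208t1 was either high or at 0. It had 87.5%, 76.5%, 50% and 50% in salinity 1, 5, 2 and 7 and 0 in salinity 3, 8 and 9, against 57.1% in control 1 and 0 in control 2. Dapma7bEVm008823t1 was at 9.38%, 21.1%, 50%, 50% and 50% in salinity 1, 3, 4, 6 and 10, against 69.0% in control 2, its only covered control. The control was the highest library in Dapma7bEVm000248t1, Dapma7bEVm642322t1 and Dapma7bEVm008823t1 and a salinity library in the other two.

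Methylation was present in every covered library in 8 of the 182, in 80% or more of them in 60, and in exactly 50% in 19. Among the 8, Dapma7bEVm024057t1 had the most calls, 346 over 8 libraries. It ran from 11.9% to 40.5% with a median of 28.2% in 6 salinity libraries, against 20.3% and 25% in control 1 and 3. The control levels lay inside the salinity range (28.7% ± 10.1, SD, n = 6, against 22.7% ± 3.30, SD, n = 2). Dapma7bEVm006850t1 was methylated in all 7 libraries, from 9.76% to 58.3% with a median of 15.4% in 6 salinity libraries, against 11.1% in control 1. Dapma7bEVm015441t1, with the same methylated counts as Dapma7bEVm642322t1, ran from 9.68% to 57.8% with a median of 41.1% in 6 salinity libraries, against 13.3%, 47.4% and 18.2% in the controls. Dapma7bEVm020015t1 was at 22.2%, 42.9%, 37.9%, 13.2% and 34.6% in salinity 1, 4, 6, 9 and 10, against 28.0% in control 2. Every library of these gene models was methylated, but the level within 1 gene model still differed by several fold between libraries.

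The levels of 1 gene model varied widely between libraries. The Pearson dispersion of the methylated counts around a single level per gene model was over 1 in all 182. It ran from 1.27 to 15.5 with a median of 4.12, and was over 4 in 97. Counting error alone gives values near 1 only where calls are independent and low counts are kept. Neither holds here, so the distance from 1 is not read as a difference between libraries. The SD of the level over covered libraries had a median of 14.1 percentage points. In 47 gene models at least 1 library was at 50% or more, and in 12 a single library held over 50% of the methylated calls. Of 1105 salinity listings, 347 (31.4%) were at 0, 262 (23.7%) at 10% to under 20% and 55 (4.98%) at 50% or more. Of 352 control listings, 79 (22.4%) were at 0, 96 (27.3%) at 10% to under 20% and 18 (5.11%) at 50% or more. The shares at 0 are not comparable between the groups, because the rule requires a methylated control. In the 82 gene models with 1 covered control, that control could not be at 0. With all 3 controls covered, 70% of control and 66.7% of salinity listings were methylated. Levels of 80% or more were found in 3 salinity listings and 1 control listing, and 0 listings were fully methylated.

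Part of the listings at 0 lie where the lowest recurring count limits what can be seen. There were 426 listings at 0 among the 182. At the level of the gene model's other libraries, 129 of them (30.3%) would be expected to hold under 3 methylated calls, 280 from 3 to under 10, and 17 at least 10. The largest expected count among the listings at 0 was 16.6, in Dapma7bEVm010654t1, which had 63 calls and 0 methylated in salinity 3 and was singled out after its values were seen. Among the methylated listings the expected count was under 3 in 176 of 1031 (17.1%).

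**Figure D2:**
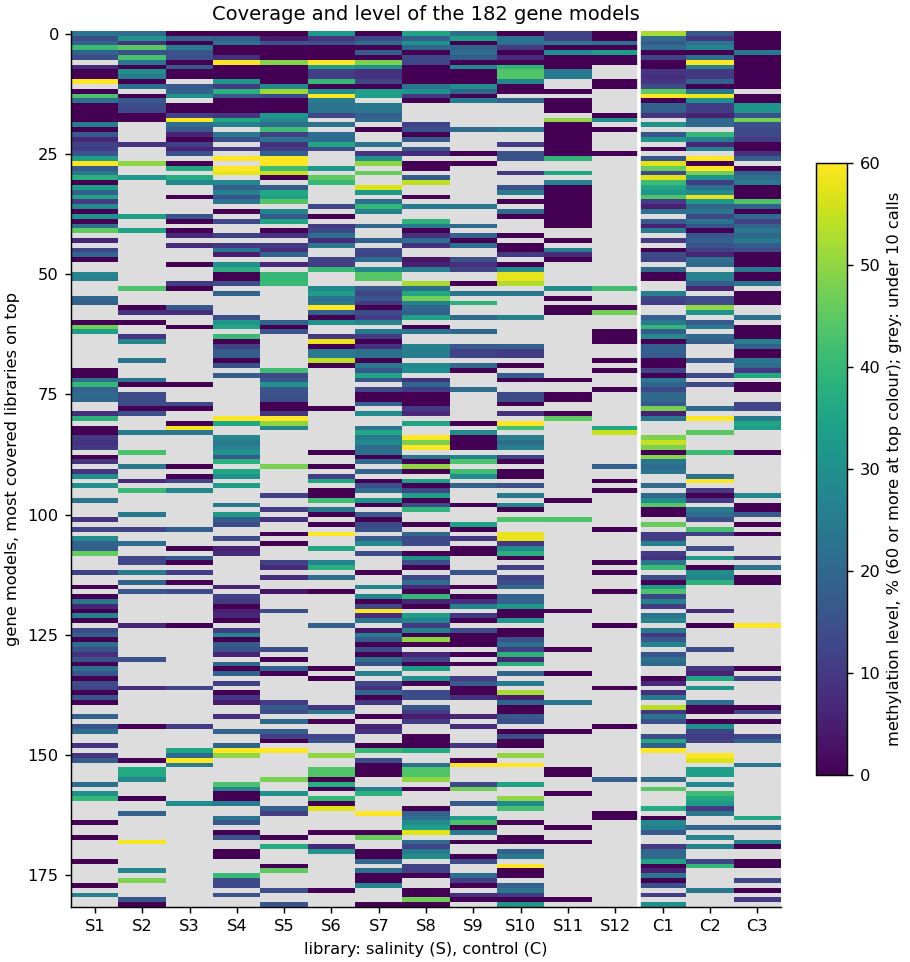
Methylation level (%, colour) of the 182 gene models (rows, those covered in most libraries on top) in the 12 salinity (S) and 3 control (C) libraries, with grey where a gene model had under 10 calls. Of the 1457 covered listings, 426 are at 0, and 26 gene models are covered in 10 or more libraries.

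The libraries in which the 182 were read differed from one gene model to the next. The number of covered libraries had a median of 7, with 33 gene models covered in 6 libraries, 69 in 7, and 26 in 10 or more, of which 6 were covered in all 15. A single control covered 82 of them, 2 controls covered 30 and all 3 covered 70. The 182 fell into 83 combinations of covering libraries. The most frequent, made of salinity 1, 4, 7, 8, 9 and 10 with control 1, held 26 gene models (14.3%), and the same combination held 13.8% of the eligible gene models. The second, made of salinity 5, 6, 8 and 10 with all 3 controls, held 10 (5.49%, against 7.77% of the eligible). Few gene models could thus be compared over the same libraries.

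Some gene models with close deposited positions had equal methylated counts in every library, so the 182 cannot be counted as separate observations. Among pairs listed together in at least 4 libraries and methylated in at least 3, with deposited positions within 10000 of each other, 49 of the 182 had a partner with exactly the same methylated count in every shared library. Listings with under 10 calls were included in this matching. The files give a position without its scaffold, so overlap of such gene models was not tested. Counted from each of the 182, so that pairs within them count from both sides, there were 72 such matches at any distance. Of these, 18 were farther apart. Within 10000, 19 pairs, each counted once, had both gene models among the 182. In 1 of these pairs (Dapma7bEVm006098t1 and Dapma7bEVm636279t1) the numbers of calls were equal too. Allowing a different methylated count in 1 shared library joined 41 of the 182 into 20 sets and left 161 units.

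Equal methylated counts gave different levels where the number of calls differed between the partners. Dapma7bEVm015441t1, Dapma7bEVm642322t1 and Dapma7bEVm645163t1 formed such a set. Over 9 shared libraries the first 2 both held 83 methylated calls, of 237 calls (35.0%) in Dapma7bEVm015441t1 and of 154 (53.9%) in Dapma7bEVm642322t1. Dapma7bEVm645163t1 held 80, of 192 calls (41.7%), and its methylated count differed in 1 library. The highest member of all, Dapma7bEVm000248t1, had 62 methylated calls over 13 libraries, as did Dapma7bEVm629786t1, which is 49.6% of its 125 calls and 27.8% of the partner's 223. Libraries with under 10 calls are included there, so the 49.6% differs from its pooled level of 58.0%. Dapma7bEVm024057t1 and Dapma7bEVm636360t1 both had 89 methylated calls over 8 libraries, at 25.7% of 346 calls and 9.85% of 904, on either side of the limit. In 10 gene models at 10% or more the exact partner was a recurrent gene model below 10%, and the level was 1.17 to 9.39 times the partner's, with a median of 3.08. The largest ratio was that of Dapma7bEVm011006t1 at 18.8% and Dapma7bEVm010300t1 at 2.01%, both with 26 methylated calls, a pair named after its values were seen.

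To describe recurrence outside the libraries that chose the gene models, the rule was applied without each library in turn. The chosen gene models were then read in that library. Only the choice of gene models was held out, because the rule itself was set with earlier results of all libraries known. Without 1 library the rule chose 164 to 184 gene models when the library was a salinity one. It chose 117, 134 and 175 without control 1, 2 and 3, and a methylated control is part of the rule. In the library left out, methylated calls were found in 21.1% to 70.3% of the chosen gene models it covered in the 12 salinity libraries, and in 66.7%, 72.3% and 37.9% in control 1, 2 and 3. Over all eligible gene models the shares were 1.75% to 10.7% in salinity and 9.47%, 9.79% and 3.88% in control 1, 2 and 3. In each of the 15 libraries the share was higher in the chosen gene models at 10% or more than in the recurrent ones below 10%, where it was 11.9% to 54.9% in salinity and 53.5%, 54.4% and 22.8% in control 1, 2 and 3. The lowest shares among the chosen gene models came from the libraries with a lowest methylated count of 4, with 45.2%, 22.4% and 21.1% in salinity 9, 11 and 12 and 37.9% in control 3.

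The mean level of the chosen gene models in the library left out was 6.49% to 15.2% in salinity libraries (12.3% ± 3.19, SD, n = 12), against 15.2%, 17.6% and 7.87% in control 1, 2 and 3 (13.5% ± 5.05, SD, n = 3). The ranges overlapped, and the SD of each group was larger than the difference of the means. Each left-out library was read at its own set of gene models.

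**Figure D3:**
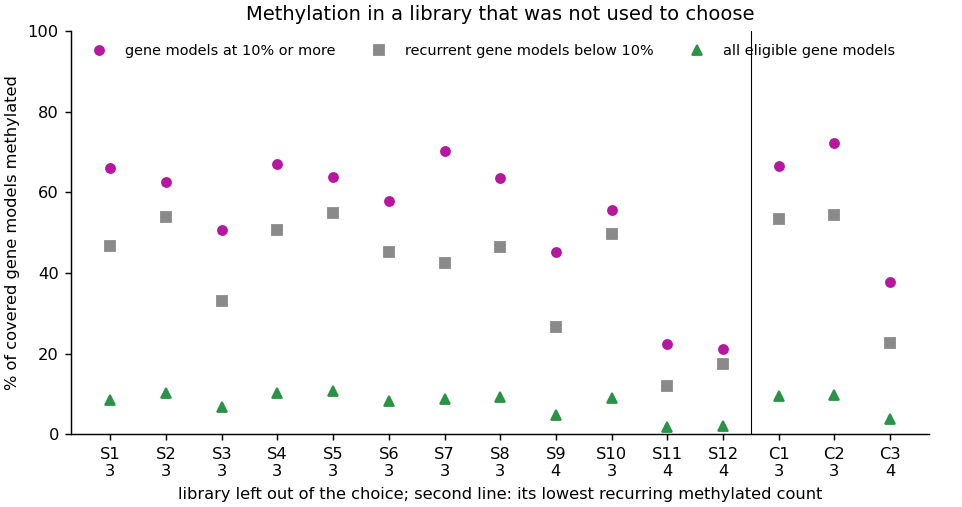
Share of covered gene models with methylated calls (%) in each library that was left out of the choice, salinity (S) on the left and control (C) on the right, with the library's lowest recurring methylated count under its name, for gene models at 10% or more (circles), recurrent ones below 10% (squares) and all eligible ones (triangles). The circles are the highest of the 3 in every library, and the libraries with a 4 have the lowest circles. The rule itself was set with earlier results of all libraries known.

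The study asked whether DNA methylation differs after salinity stress. Over the 182, the mean level per library was 15.9% ± 4.37 (SD, n = 12) in salinity and 18.6% ± 6.38 (SD, n = 3) in control libraries. Salinity minus control was -2.63 percentage points, less than the SD of either group, and no test was made because these levels chose the gene models. Salinity libraries ran from 7.53% (salinity 11) to 20.9% (salinity 6) with a median of 17.7%, against 20.7%, 23.6% and 11.4% in control 1, 2 and 3. Control 1 and 2 were near or above the highest salinity library, and control 3 was below all but salinity 11 and 12. A library covered 37 to 134 of the 182 in salinity and 102 to 137 in control.

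The 4 libraries with a lowest methylated count of 4 had the lowest mean levels, 13.3%, 7.53% and 8.14% in salinity 9, 11 and 12 and 11.4% in control 3. Where the lowest count was 3, the means were 18.01% ± 2.02 (SD, n = 9) in salinity and 22.2% ± 2.01 (SD, n = 2) in control. Setting counts of 3 or fewer to 0 in all libraries gave 14.5% in salinity and 16.9% in control. Beyond these values, the part of the lowest count in the result was not tested. Without control 3 the difference was -6.22 percentage points, without control 2 it was -0.128, and without salinity 11 and 12 it was -1.02. Where methylated calls were present, the mean level was 21.6% to 33.5% in salinity libraries and 24.3%, 25.9% and 21.9% in control 1, 2 and 3. Salinity 9, 11 and 12 were at 21.6%, 28.3% and 33.5%, against 21.9% to 28.6% in the other salinity libraries, and control 3 was below control 1 and 2. The shares of covered gene models that were methylated were 61.5%, 26.7% and 24.3% in salinity 9, 11 and 12 and 52.0% in control 3, against 63.1% to 80% in the other salinity libraries and 85.4% and 91.2% in control 1 and 2.

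The sample titles carry S numbers in 3 bands, each with 4 salinity libraries and 1 control. The mean level was 17.8% ± 1.14 (SD, n = 4) in salinity and 20.7% in control for S numbers 1 to 5, and 15.9% ± 5.62 (SD, n = 4) in salinity and 23.6% in control for 10 to 14. For 17 to 21 it was 14.05% ± 5.25 (SD, n = 4) in salinity and 11.4% in control. The difference was thus negative in the first 2 bands and positive in the third, with 1 control behind each. By title number, the salinity libraries averaged 16.4% (titles 11, 25 and 27), 19.6% (28, 36 and 38), 16.3% (41, 48 and 51) and 11.5% (52, 54 and 55), and the last of these groups holds salinity 11 and 12.

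**Figure D4:**
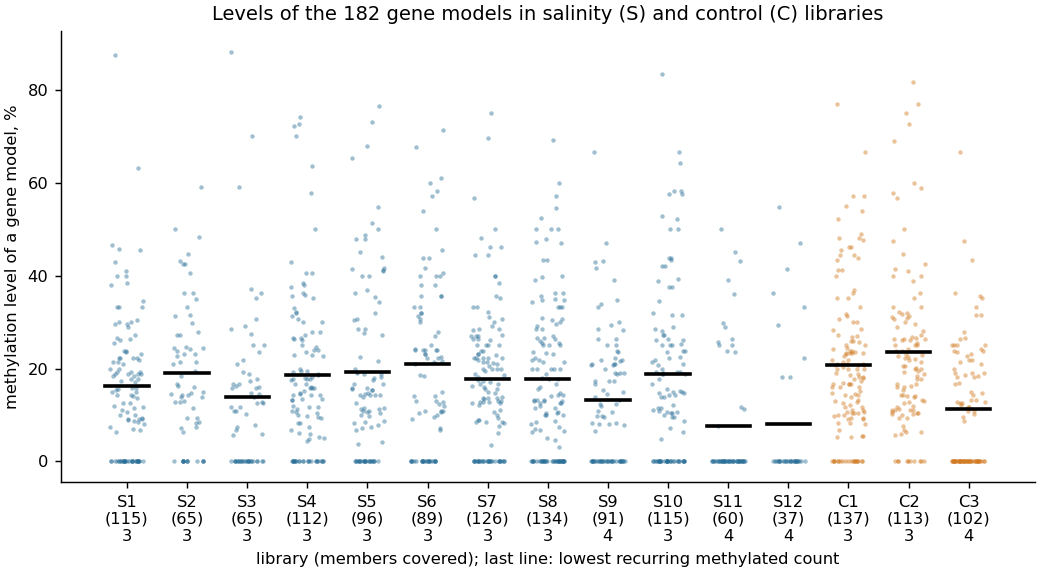
Methylation level (%) of each covered gene model of the 182 (points) and their mean (black bar) in the 12 salinity (S) and 3 control (C) libraries, with the number of covered gene models and the library's lowest recurring methylated count under each name. The means run from 7.53% to 20.9% in salinity and are 20.7%, 23.6% and 11.4% in the controls, and the points at 0 are most frequent in S11 and S12.

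The direction of the difference followed the number of controls that covered a gene model. With 1 covered control, the salinity mean was the higher one in 22 gene models and the lower one in 60, with a median difference of -9.58 percentage points. In these 82 the rule itself requires the only control to be methylated, so its level could not be 0, while 68.1% of the salinity listings were methylated. With 2 covered controls 15 were higher and 15 lower in salinity (median 0.35). With all 3 covered, 39 were higher and 31 lower in salinity, with a median of 1.34 percentage points and averages of 17.4% in salinity and 16.7% in control. There, 66.7% of salinity and 70% of control listings were methylated. With 2 or 3 covered controls the rule still demands at least 1 methylated control and makes no such demand of salinity libraries. Over libraries whose lowest count was 3, the gene models covered in all 3 controls were 35 higher and 35 lower in salinity, with a median difference of -0.21.

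**Figure D5:**
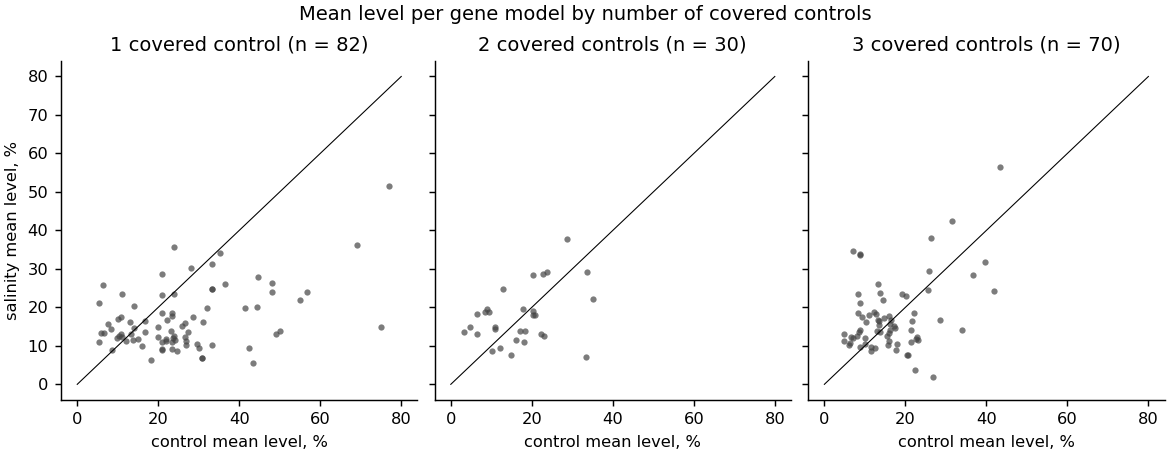
Mean level (%) over the covered salinity libraries against the mean level over the covered controls for each of the 182 gene models, in panels by the number of covered controls, with the line of equal levels. With 1 covered control, 60 of 82 points lie below the line, and with 3 covered controls 31 of 70 do.

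Single gene models were compared between salinity and control libraries by quasi-binomial regression over all 8248 gene models covered in at least 2 control and 4 salinity libraries, with Benjamini-Hochberg adjustment over the 8248. Of these, 0 passed an adjusted p of 0.05 (0% called), and at an unadjusted p under 0.05 there were 260 (3.15%). Only 2314 of the 8248 held a methylated call in a covered library, and the 260 are 11.2% of these 2314. Among the 182, 96 could be tested, of which 0 passed. At the unadjusted level there was 1 of the 96 (1.04%), and all 96 hold methylated calls by the rule. The other 86 were not tested, 82 of them for lack of a second covered control. The salinity mean was the higher one in 52 of the 96 and the lower one in 44. The median difference was 1.31 percentage points, from -26.3 to 27.4. Over all 8248 the median was 0, with 1425 higher, 889 lower and 5934 without any methylated call in a covered library. The smallest adjusted p over the 8248 was 0.956, and all 96 had an adjusted p of 1. The levels tested also chose the 96, so nothing is read from their counts. The edgeR quasi-likelihood test and limma on logit levels also called 0 of the 96, with 0 (edgeR) and 5 (limma) at an unadjusted p under 0.05. Over all gene models tested, edgeR called 0 of the 2314 with a methylated call (1.51% unadjusted), and limma called 3 of 8248 (0.0364%, and 3.39% unadjusted). The Pearson dispersion within groups had a median of 3.99 in the 96.

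Among the 96, the largest differences in group means were examined in single libraries. Larger negative differences, down to -60.0 percentage points in Dapma7bEVm012202t1, were found in gene models with 1 covered control, which could not be tested and whose control is methylated by the rule. Dapma7bEVm644935t1 was at 0 in salinity 2, 3, 5 and 6 and at 10% in salinity 8, against 47.6%, 20% and 12.5% in control 1, 2 and 3. Its groups did not overlap (2.00% ± 4.47, SD, n = 5, against 26.7% ± 18.5, SD, n = 3), and it is the gene model with the unadjusted p of 0.0295 in the regression. It was methylated in all 3 controls and in 1 salinity library, so it met the rule through the controls. Its separation and p are thus partly set by the rule. Dapma7bEVm010313t1 was at 6.25%, 0, 18.4%, 10.7% and 0 in salinity 2, 3, 6, 8 and 12, against 0 and 66.7% in control 2 and 3. The high control level came from 10 of 15 calls in 1 library, and without control 3 the difference was 7.08 percentage points.

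In the other direction, Dapma7bEVm002474t1 was at 0, 60%, 20% and 58.3% in salinity 5, 6, 8 and 10, against 10.3%, 11.1% and 0 in control 1, 2 and 3. The salinity libraries were both the highest and among the lowest. Dapma7bEVm014167t1 was at 27.3%, 0, 40%, 44.4% and 57.7% in salinity 1, 4, 5, 7 and 10, against 0, 26.1% and 0 in the controls. Its partner Dapma7bEVm645041t1 had the same methylated count in every library, so the pair cannot be counted as 2 observations. The adjusted p was 1 for these gene models in the quasi-binomial regression. They were picked for their differences, which are therefore a description.

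Fisher's exact test on counts summed over each group, which ignores the spread between libraries, called 7 of the 96 and 184 of the 8248 (2.23%). A gene model without methylated calls cannot be called by this test, so the 184 all lie among the 2314 with methylated calls. The 96 all hold methylated calls, so shares over the 8248 are too low to set beside theirs. Of the 7, 4 were higher in salinity (0.885% of all gene models tested were) and 3 lower (1.35% were), and they include Dapma7bEVm644935t1, Dapma7bEVm010313t1, Dapma7bEVm014167t1 and its partner. Dapma7bEVm006886t1, also among them, ran from 0 to 35.6% with a median of 11.2% in 8 salinity libraries, against 6.67% and 0 in control 2 and 3. Its highest library, salinity 6, held 32 of its 67 methylated calls. Dapma7bEVm008197t1 was at 0 in salinity 5, 8 and 10 and at 15% in salinity 6, against 36.4%, 11.8% and 19.05% in control 1, 2 and 3. Its groups overlapped only through salinity 6. Like Dapma7bEVm644935t1, it was methylated in all 3 controls and 1 salinity library, so it met the rule through the controls.

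The 6 gene models covered in every library, added after the data were seen, give the comparison with the fewest gaps. All but Dapma7bEVm010653t1 have deposited positions within 950 of each other. Dapma7bEVm028907t1, with 754 calls the best read of them, ran from 0 to 34% with a median of 16.1% in 12 salinity libraries, against 21.7%, 9.30% and 0 in control 1, 2 and 3. It was methylated in 13 of 15 libraries, all but salinity 12 and control 3 (16.2% ± 9.98, SD, n = 12, against 10.3% ± 10.9, SD, n = 3). Dapma7bEVm014472t1 ran from 0 to 31.0% with a median of 20.3% in salinity, against 16.7%, 22.9% and 0 in the controls. In both, control 3 was at 0 and the other controls lay inside the salinity range.

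Dapma7bEVm010653t1 was methylated in 8 of 15 libraries. It ran from 0 to 35.6% with a median of 5.88% in salinity, against 52.3%, 16.1% and 0 in control 1, 2 and 3. The highest library was control 1, on 23 of 44 calls. Dapma7bEVm018704t1 had the opposite order of controls, at 0 to 33.3% with a median of 15.4% in salinity libraries, against 0 in control 1 and 2 and 24.2% in control 3. Its highest salinity libraries were salinity 11 and 12, which had the lowest mean levels over the 182.

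Dapma7bEVm029048t1 ran from 0 to 44.7% with a median of 5% in salinity, against 21.4%, 26.3% and 0 in control 1, 2 and 3. Dapma7bEVm630241t1 ran from 0 to 42.5% with a median of 7.74% in salinity, against 11.8%, 22.7% and 0 in the controls. The methylated counts of this pair were equal in 13 of the 15 libraries, 7 of these methylated, and their deposited positions were 453 apart. The mean level of the 6 was 13.5% ± 6.99 (SD, n = 12) in salinity and 13.6% ± 8.60 (SD, n = 3) in control libraries, a difference of -0.16 percentage points. Close to the 10% limit, Dapma7bEVm010960t1 ran from 0 to 30% with a median of 6.78% in 7 salinity libraries, against 20.2% and 0 in control 2 and 3. These single gene models were chosen with the same levels, so their differences are a description.

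The share of a library's methylated calls that lay in the 182 was 6.42% to 11.8% in salinity libraries (8.57% ± 1.91, SD, n = 12) and 9.41% to 11.8% in controls (10.4% ± 1.26, SD, n = 3). They took 0.0726% to 0.241% of all calls in salinity and 0.140% to 0.211% in control libraries. Methylated calls in these gene models numbered 98 (salinity 12) to 814 (salinity 4) in salinity, and 1038, 847 and 309 in control 1, 2 and 3.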

How the data were processed

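Bisulfite libraries of 12 salinity and 3 control samples were used. Per the labels' protocols, DNA was cut with MspI, ligated to methylated adapters and bisulfite converted, and the submitters' processing notes name Bismark 0.18.1, FastQC and Trim Galore 0.4.4. The sources used here do not give the genome build, the cytosine context or how calls were summed, and no genome was used. The authors deposited total calls as raw counts, and methylated calls as values handled like estimated counts, since 27 missed a whole number by rounding error. These were rounded. Groups come from the treatment label, and replicate numbers only name libraries.

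Gene models were joined by identifier. The regression of methylated and total calls on group used a two-sided F test and a Pearson dispersion floored at 1. It was tested on simulated data. Python 3.11.15, scipy 1.17.1, edgeR 4.0.16 and limma 3.58.1 were used. In edgeR uncovered libraries entered with 0 calls, and gene models without methylated calls were left out. Limma used counts plus 0.5. Gene models were named by level, nearness to the limit, methylation in every covered library, size of difference, and calls by any tool (the first 5). The members, lists and rules were chosen with earlier results of these data known. Depth and its limits are given with the results.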

Additional observations from a re-analysis of the deposited data

Results flagged for a closer look

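In 25 groups of 4 to 10 salinity libraries checked, 5 had 1 library far from the others by Dixon's test at the 95% level. For normally distributed values chance gives this in about 1 of 20 groups. These levels hold many values of 0, and a single methylated library among values of 0 is always flagged. Some gene models were also named for their differences, so the 5 are not set against that rate. Dapma7bEVm010960t1 was at 30% in salinity 4, on 20 calls, with the next salinity library at 10.7%. Dapma7bEVm005869t1, just under the 10% limit, was at 24% in salinity 6, on 25 calls, with the next at 9.80%. Dapma7bEVm644935t1 was at 10% in salinity 8 and at 0 in the other 4 covered salinity libraries. Dapma7bEVm008197t1 was at 15% in salinity 6 and at 0 in the other 3. Among the 4 salinity libraries with S numbers 10 to 14, the mean level over the 182 gene models was 7.53% in salinity 11, and the next library was at 17.7%. Salinity 11 has a lowest recurring methylated count of 4, and the other 3 of that band have 3.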

How the results depend on the processing

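The number of gene models chosen was 182. It was 111 with at least 20 calls for coverage (100 of them among the 182), 119 with counts of 3 or fewer set to 0, 26 with coverage in 10 or more libraries, and 60 with methylation in 80% or more of them. It was 327 at a pooled level of 5% and 53 at 20%. Leaving out 1 library it ran from 117 (without control 1, 109 of them among the 182) to 184. The difference in mean level, -2.63 percentage points, was -7.67 within S numbers 10 to 14 and 2.67 within 17 to 21. Leaving out 1 library it ran from -6.22 (without control 3) to -0.128 (without control 2). The count of gene models among the 182 that passed was 0, and 7 with Fisher's exact test. Over all tested gene models it was 0, and 184 with Fisher's exact test, 10 without the floor on the dispersion and 3 with limma, of which 0 among the 182 without the floor or with limma. Leaving out 1 library both counts ran from 0 to 0. With counts of 3 or fewer set to 0 the smallest adjusted p among the 182 was 0.624. No paired analysis was possible because no replicate number stands in the labels. Title bands as a block gave 0 calls.

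Of 303 values for 25 named gene models, 293 kept their direction or moved by less than 1 SD. Leaving out 1 library, the difference ran from -19.4 to 37.7 points in Dapma7bEVm008208t1, -11.5 to 8.69 in Dapma7bEVm010960t1, -22.0 to 4.14 in Dapma7bEVm010653t1, -3.06 to 8.40 in Dapma7bEVm014472t1, -10.6 to 2.59 in Dapma7bEVm029048t1, -7.51 to 3.86 in Dapma7bEVm630241t1 and -59.6 to 7.08 in Dapma7bEVm010313t1, so each changed sign. The small differences of Dapma7bEVm010157t1 and Dapma7bEVm020015t1 also changed sign, within 1 SD. For Dapma7bEVm008823t1 the difference was -59.6 with at least 20 calls, which leaves fewer libraries. The other causes were not tested. The choice of libraries by lowest count, shared counts counted once, gene models in all controls, and leaving out salinity 11 with 12 were chosen after seeing the data. The limits lie in few calls per gene model, the missing counts of 1 and 2, and gene models with equal methylated counts.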

Other observations

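Listings of the 182 gene models with under 10 calls entered no comparison of salinity with control libraries at the main coverage minimum. They did enter the matching of methylated counts between gene models. In the salinity libraries there were 119 of them with 750 calls, of which 91 (12.1%) were methylated, and in the control libraries 19 with 122 calls, of which 15 (12.3%) were methylated. Methylated calls were present in 22 of the 119 salinity listings (18.5%) and in 3 of the 19 control listings (15.8%).

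Among the 182, 4 gene models had 2 different deposited positions across libraries. The position number of 29 was also that of another gene model, and for 10 of them the other was among the 182.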
